A study of Mus musculus with 2 samples.

Results

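The genes described here are 10 transcription factors and maternal regulators of the mouse oocyte: Figla, Nobox, Sohlh1, Sohlh2, Lhx8, Pou5f1, Zar1, Zar1l, Brwd1 and Ctcf. They were taken by name from a table of 36227 Ensembl genes, of which 18364 had counts. Of the 10 genes 9 had a row of counts, and Lhx8, which matched no row, is not analysed here. RNA had been measured in 2 pools of naturally ovulated oocytes of the ICR strain, arrested in meiosis at the MII stage (metaphase II), 1 pool from aged females of 12 months and 1 from young females of 3 months. Each pool held 18 oocytes, 3 from each of 6 females, lysed in a single tube. The aged library held 18597656 counts and the young library 19475110. The study's question was how the oocyte's messenger RNA differs with the mother's age.

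Each age was sequenced as 1 library, so the spread between females or libraries is unknown and no test of age could be made. A 2-fold difference is used as a rule of size. The 95% intervals cover only the counting error of reads. The cDNA was amplified without molecular identifiers, so reads may be copies of the same molecule and the intervals may be too narrow. In a pool, fewer oocytes that hold a transcript and less of it per oocyte cannot be told apart. Levels are given in CPM, counts scaled to a library total of 1000000, and each ratio is log2 of aged over young CPM. Ratios are read for genes whose 2 libraries averaged 20 counts or more, called here the floor, which 10211 genes and 8 of the 10 regulators reached.

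As background, a growing oocyte builds up its messenger RNA while it transcribes, falls silent before ovulation, and then lives on stored transcripts until the embryo's own genome is switched on. Figla, Sohlh1 and Sohlh2 are basic helix-loop-helix factors that bind the E-box, and Nobox and Lhx8 are homeodomain factors. These 5 act in early follicles, where they turn on genes of the egg coat and of oocyte-secreted growth factors. Zar1 and its relative Zar1l are RNA-binding proteins that help to store and translate maternal messages, Pou5f1 encodes the pluripotency factor Oct4, and Brwd1 and Ctcf act on chromatin. In an ovulated oocyte all of these transcripts are a remnant of earlier transcription or a store for the embryo.

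The promoters of 5 regulators and of the egg-coat gene Zp3 are shown because Figla, Sohlh2 and Zar1l were the 3 regulators with lower levels in the aged library, Nobox and Zar1 were their nearest counterparts without such a difference, and Zp3 is a known target of Figla. Each is the RefSeq sequence of build GRCm38.p6 from 250 bases before the start of transcription to 50 after it, read 5′ to 3′ on the gene's strand, with the motifs searched for in capitals.
Figla, chr6:86016941-86017240, plus strand: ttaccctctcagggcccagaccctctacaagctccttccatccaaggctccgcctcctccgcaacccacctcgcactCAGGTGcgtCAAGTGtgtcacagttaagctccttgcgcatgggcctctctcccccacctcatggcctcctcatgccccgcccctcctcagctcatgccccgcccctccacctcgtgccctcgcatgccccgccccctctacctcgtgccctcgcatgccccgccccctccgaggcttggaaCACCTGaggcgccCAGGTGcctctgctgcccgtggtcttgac
Sohlh2, chr3:55181794-55182093, plus strand: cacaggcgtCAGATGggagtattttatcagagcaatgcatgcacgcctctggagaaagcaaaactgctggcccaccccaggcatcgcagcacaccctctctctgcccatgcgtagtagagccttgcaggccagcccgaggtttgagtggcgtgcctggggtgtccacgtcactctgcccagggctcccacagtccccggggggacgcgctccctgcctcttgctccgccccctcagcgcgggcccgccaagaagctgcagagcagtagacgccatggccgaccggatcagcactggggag
Nobox, chr6:43309505-43309804, minus strand: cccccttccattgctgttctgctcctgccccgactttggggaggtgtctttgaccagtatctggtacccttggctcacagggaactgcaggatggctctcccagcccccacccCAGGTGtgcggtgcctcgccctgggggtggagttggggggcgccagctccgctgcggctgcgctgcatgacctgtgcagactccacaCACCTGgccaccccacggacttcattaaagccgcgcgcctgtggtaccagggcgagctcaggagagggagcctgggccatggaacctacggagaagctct
Zar1, chr5:72581035-72581334, minus strand: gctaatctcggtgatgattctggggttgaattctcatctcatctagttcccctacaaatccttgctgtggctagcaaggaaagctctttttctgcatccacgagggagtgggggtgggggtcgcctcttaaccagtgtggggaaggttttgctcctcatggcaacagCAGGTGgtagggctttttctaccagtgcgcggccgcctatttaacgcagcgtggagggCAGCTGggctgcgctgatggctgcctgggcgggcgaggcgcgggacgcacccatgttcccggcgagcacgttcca
Zar1l, chr5:150518110-150518409, minus strand: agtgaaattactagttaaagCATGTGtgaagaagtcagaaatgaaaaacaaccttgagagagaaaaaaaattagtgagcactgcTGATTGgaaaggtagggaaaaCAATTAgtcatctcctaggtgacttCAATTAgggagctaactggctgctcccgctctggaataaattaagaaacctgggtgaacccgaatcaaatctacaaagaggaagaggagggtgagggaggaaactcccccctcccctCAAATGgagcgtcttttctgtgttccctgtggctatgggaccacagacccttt
Zp3, chr5:135979855-135980154, plus strand: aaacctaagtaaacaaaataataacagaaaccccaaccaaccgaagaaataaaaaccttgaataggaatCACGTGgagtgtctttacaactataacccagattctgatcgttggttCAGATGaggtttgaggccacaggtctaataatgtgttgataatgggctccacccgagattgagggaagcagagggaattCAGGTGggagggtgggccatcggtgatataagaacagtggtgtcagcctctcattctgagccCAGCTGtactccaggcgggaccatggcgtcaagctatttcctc

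The letters searched for on both strands were CANNTG (the E-box, which reads the same way on both strands in its fixed letters), TAATTG (a Nobox-binding sequence), TGATTG (an Lhx8-binding sequence) and ATGCAAAT (the octamer of POU factors such as Oct4). The Figla promoter held 4 E-boxes, the first of them starting 173 and 164 bases before the start of transcription and the other two starting after it. At least 4 E-boxes were found in 6.49% of the 32851 mouse promoters of the same length, and at least 1 in 72.3%. The Zp3 promoter also held 4, with CACGTG starting 181 bases before the start. Sohlh2 had 1 E-box, and Nobox, Zar1 and Zar1l had 2 each. Sohlh1 had 5, of which 3 were CACGTG, and at least 5 were found in 2.10% of promoters. Zar1l was the 1 regulator with the Nobox sequence, which it held as CAATTA at 145 and 120 bases before its start and which 8.0% of all promoters hold. It was also the 1 regulator with the Lhx8 sequence, found in 14.0% of promoters, at 166 bases before the start. Its relative Zar1 held neither. The promoters of Brwd1, Ctcf and Lhx8 held none of the 4 motifs, and the GC content of the first pair, 80.0% and 75.3%, was the highest among the regulators. The octamer, found in 1.74% of promoters, was in none of them. These matches describe letters in a window and show neither binding nor control.

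Levels of the regulators covered more than 3 orders of magnitude on the scale of CPM per kilobase of the longest coding transcript. Zar1 stood far above the others with 3340 CPM per kilobase in aged oocytes against 2475 in young oocytes. By its counts it was the 19th most abundant gene of the aged library and the 27th of the young one. In the aged library Nobox (25.4 CPM per kilobase), Ctcf (19.0), Zar1l (14.4), Pou5f1 (11.1) and Brwd1 (5.57) followed, each apart from the next beyond counting error. Figla, at 1.77 CPM per kilobase, and Sohlh2, at 1.55, had overlapping intervals there, and Sohlh1 was lowest with 0.417. The order depends on the division by length. In aged CPM without it, Zar1 was followed by Ctcf (71.9), Brwd1 (54.8), Nobox (48.1), Pou5f1 (15.1) and Zar1l (12.9). The cDNA was primed on the poly(A) tail, and whether division by the full transcript length suits it was not tested. In the young library the order per kilobase was Zar1l (27.9), Nobox (19.3), Figla (13.9), Ctcf (8.42), Pou5f1 (7.73), Brwd1 (3.79), Sohlh2 (2.85) and Sohlh1 (0.159). Only Ctcf and Pou5f1 overlapped in that order. Per kilobase Zar1l thus stood below Nobox and Ctcf in the aged library but above both in the young one. In CPM Zar1l was below both in the young library too, so this change of order was seen only after the division by length. Per kilobase Figla stood below Pou5f1 and Brwd1 in the aged library but above both in the young one. In CPM Figla was below Brwd1 in the young library too (10.6 against 37.3) and level with Pou5f1 there (10.5).

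**Figure D1:**
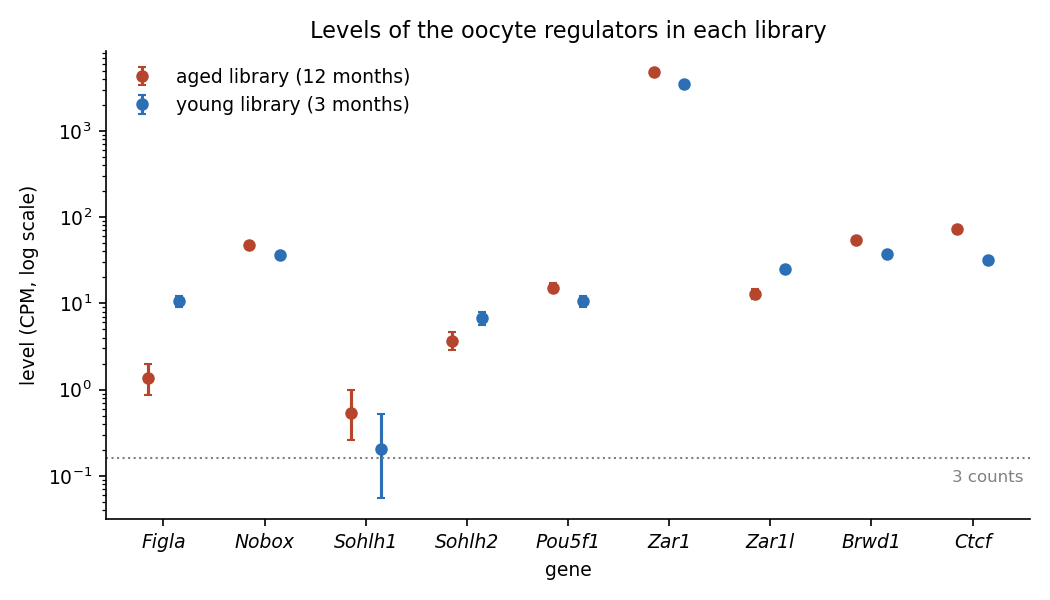
Level of each regulator in CPM on a log axis, in the aged library (red, left) and the young library (blue, right), with 95% exact Poisson intervals of the count; the dotted line marks 3 counts in the aged library. Figla lies at 1.34 CPM in the aged library against 10.6 CPM in the young one, and Zar1 lies at 4773 CPM against 3536 CPM.

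Among the 8 regulators at or above the floor, Figla was lower by 2-fold or more in aged oocytes and Ctcf higher by 2-fold or more, while the other 6 lay within 2-fold. Of all 10211 genes 10.6% were at least 2-fold lower and 27.9% at least 2-fold higher, so 1 of 8 in each direction is near the share of all genes for the lower side and below it for the higher side, and is not a result about the regulators. The log2 ratio was above 0 for 5 of the 8 and below 0 for 3, where 66.4% and 33.6% of all genes were. The median log2 ratio of the 8 genes was 0.41, beside 0.43 for all genes (quartiles −0.28 and 1.09). Most genes were thus somewhat higher in the aged library when counts were scaled to library totals. Values relative to the median gene, which are 0.43 lower, are therefore given as well. On that scale Figla, Zar1l and Sohlh2 were at least 2-fold lower, where 17.3% of all genes were, and none of the 8 was at least 2-fold higher, where 16.0% were.

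**Figure D2:**
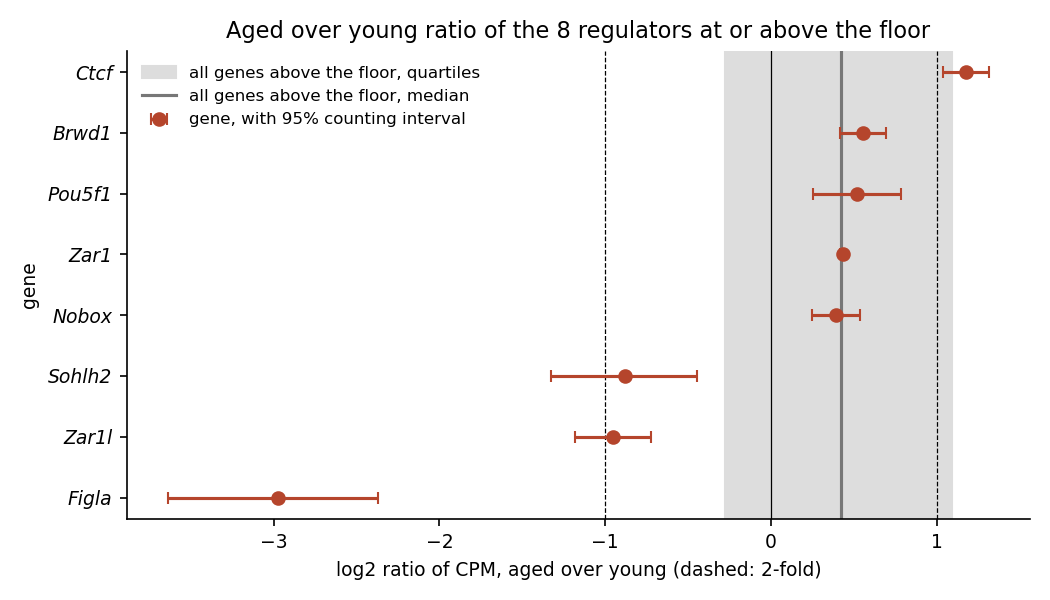
Log2 ratio of CPM, aged over young, for the 8 regulators with a mean of at least 20 counts, with 95% counting intervals; the grey band and line are the quartiles and median of all 10211 such genes and dashed lines mark 2-fold. Nobox, Zar1, Pou5f1 and Brwd1 sit between 0.39 and 0.55, close to the median gene at 0.43, and Figla lies at −2.98.

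Figla (ENSMUSG00000030001, chromosome 6), which drives the zona pellucida genes and is needed for the first follicles to form, had 25 counts in aged oocytes against 206 in young oocytes. This corresponds to 1.34 CPM (exact Poisson interval 0.870 to 1.98) in the aged library against 10.6 CPM (9.18 to 12.1) in the young one. The intervals of the 2 libraries were far apart. Figla was 7.87-fold lower in the aged library, with a counting interval of 5.18 to 12.4. On the log2 scale the ratio was −2.98, or −3.40 once the median gene was set to 0. Only 134 of the 10211 genes (1.31%) had a lower ratio, and among the 1026 genes of like mean count (81.5 to 128 counts) 1.17% did. In level, Figla stood above 6.32% of the genes at or above the floor in the aged library and above 53.5% in the young one.

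Nobox (ENSMUSG00000029736, chromosome 6), a homeodomain factor without which young follicles are lost, had 894 counts in aged oocytes against 712 in young oocytes. Its level was 48.1 CPM against 36.6 CPM, 1.31-fold higher (1.19 to 1.45). At a log2 ratio of 0.39 it was −0.03 from the median gene, and 48.8% of genes had a lower ratio. Nobox and Figla are both factors of early follicles, and counts of one against the other do not depend on how the libraries are scaled. There were 2.80 Figla counts for every 100 Nobox counts in aged oocytes against 28.9 in young oocytes, a 10.3-fold difference (6.75 to 15.9).

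Sohlh2 (ENSMUSG00000027794, chromosome 3), a helix-loop-helix factor of early germ cells that pairs with Sohlh1, had 68 counts in aged oocytes against 131 in young oocytes, or 3.66 CPM against 6.73 CPM. It was 1.84-fold lower in the aged library, with an interval of 1.36 to 2.5 that spans 2-fold. Relative to the median gene its log2 ratio of −0.88 became −1.31, and 12.2% of all genes had a lower ratio. Against Nobox, Sohlh2 was 2.42-fold lower in the aged library (1.78 to 3.29), with 7.61 counts per 100 Nobox counts in aged oocytes against 18.4 in young oocytes. Against Sohlh2, Figla was 4.28-fold lower (2.57 to 7.11), so the 2 helix-loop-helix genes differed in size beyond counting error.

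Sohlh1 (ENSMUSG00000059625, chromosome 2) lay below the floor with 10 counts in aged oocytes against 4 in young oocytes, or 0.538 CPM against 0.205 CPM. The interval of its ratio, from 0.755-fold to 11.4-fold, includes equality, so no difference was detectable at this depth. A count of 0 would have allowed up to 0.161 CPM in the aged library and 0.154 CPM in the young one.

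Pou5f1 (ENSMUSG00000024406, chromosome 17), which encodes Oct4, had 281 counts in aged oocytes against 205 in young oocytes. The corresponding levels were 15.1 CPM and 10.5 CPM, 1.44-fold higher in the aged library (1.19 to 1.73). Its log2 ratio of 0.52 was 0.10 from the median gene. Per 100 Nobox counts there were 31.4 Pou5f1 counts in aged oocytes against 28.8 in young oocytes, a 1.09-fold difference whose interval of 0.889 to 1.34 includes equality. Pou5f1 has several processed pseudogenes in the mouse and a gene antisense to it, with the handling of such reads not given in the sources used here, so its counts are uncertain.

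Zar1 (ENSMUSG00000063935, chromosome 5), which binds maternal messages and is needed for the step from egg to embryo, had 88770 counts in aged oocytes against 68866 in young oocytes. At 4773 CPM against 3536 CPM it was 1.35-fold higher in the aged library (1.34 to 1.36). Its log2 ratio of 0.43 equalled that of the median gene to within 0.01. Zar1l (ENSMUSG00000056586, chromosome 5), its less abundant relative, had 240 counts in aged oocytes against 486 in young oocytes, or 12.9 CPM against 25 CPM. It was 1.93-fold lower in the aged library (1.65 to 2.27), and its log2 ratio of −0.95 lay −1.38 from the median gene. Among the 1022 genes of like mean count 7.14% had a lower ratio than Zar1l. For each Zar1l count the aged library held 370 Zar1 counts and the young library 142, a 2.61-fold difference between the relatives (2.24 to 3.05) that does not depend on the scaling. A processed pseudogene lies within Zar1l on its strand, so a share of its counts may not be its own.

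Brwd1 (ENSMUSG00000022914, chromosome 16), a bromodomain and WD-repeat protein that female mice need for fertility, had 1019 counts in aged oocytes against 727 in young oocytes. Its level was 54.8 CPM against 37.3 CPM, 1.47-fold higher in the aged library (1.33 to 1.62), with a log2 ratio of 0.55 that was 0.13 from the median gene. Ctcf (ENSMUSG00000005698, chromosome 8), the zinc-finger protein that bounds chromatin loops, had 1337 counts in aged oocytes against 620 in young oocytes. It was 2.26-fold higher in the aged library (2.05 to 2.49), at 71.9 CPM against 31.8 CPM. Relative to the median gene its log2 ratio of 1.18 became 0.75, or less than 2-fold, and 77.4% of all genes had a lower ratio. Against Brwd1, Ctcf was 1.54-fold higher in the aged library (1.34 to 1.76), with 131 Ctcf counts per 100 Brwd1 counts in aged oocytes against 85.3 in young oocytes. Both genes overlap others on the opposite strand, with the use of strand in counting not given in the sources used here.

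In the authors' deposited table, whose p-values compare the reads of 2 libraries and not the ages, 8 of the 9 regulators were marked at p below 0.001 and Sohlh1 was not, and 50% of all genes with a deposited fold change were marked.

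The regulators differed in base composition and length, and the ratio of all genes moved with both. The median log2 ratio was 1.04 in the tenth of genes lowest in GC content and −0.28 in the tenth highest in it. Figla, Nobox and Zar1l had nearly the same GC content, at 52.4%, 52.6% and 52.4%, and belonged to the same bin, the tenth of genes with 51.5% to 53.4% GC, whose median was 0.29 with quartiles of −0.36 and 0.89. Figla (−2.98) and Zar1l (−0.95) lay below that range and Nobox (0.39) inside it. Figla (759 bases) and Zar1l (895 bases) were the shortest of the regulators and were among the tenth of genes with the shortest transcripts, whose median was −0.01. Zar1 had the highest GC content of the regulators, 62.1%, and belonged to the tenth of genes with the highest, above whose upper quartile of 0.31 it lay with 0.43. After subtraction of the median of each gene's bin of length and GC content, the log2 ratio was −3.02 for Figla, −1.51 for Sohlh2, −1.0 for Zar1l, −0.31 for Brwd1, 0.19 for Nobox, 0.57 for Ctcf, 0.75 for Pou5f1 and 0.89 for Zar1. Figla and Sohlh2 were then at least 2-fold lower, where 14.9% of genes were, and none of the 8 was at least 2-fold higher, where 13.6% were.

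**Figure D3:**
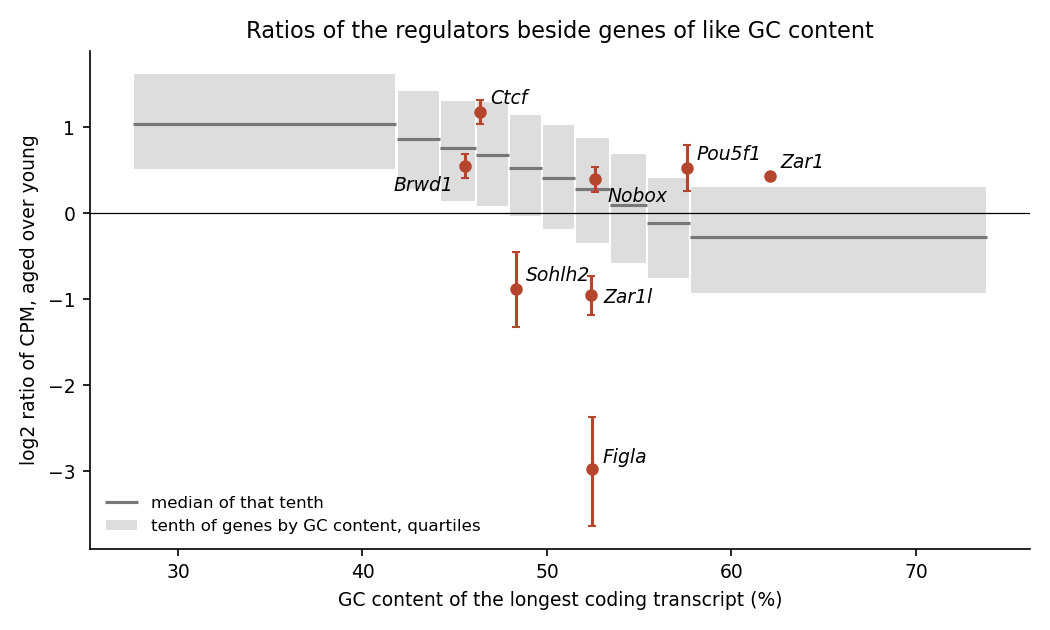
Log2 ratio of CPM, aged over young, against GC content of the longest coding transcript, for the 8 regulators with 95% counting intervals; grey boxes span the quartiles of genes in 10 equal bins by GC content and grey lines their medians. Figla, Zar1l and Sohlh2 lie below the box of their bin, and Pou5f1 and Zar1 above it.

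How many regulators passed 2-fold varied with the processing. TMM scaling, which trims extreme genes before it sets the library totals, left 0 of 8 higher and 3 lower, where 17.2% and 16.3% of genes were. Totals without the 100 most abundant genes also left 0 and 3, where 19.5% and 14.6% of genes were. With 5 counts added to every count there were 1 and 1, where 26.5% and 9.76% of genes were. A floor of 100 counts kept 7 regulators, of which 1 was higher (25.7% of genes) and 1 lower (7.39%). With no floor Sohlh1 joined Ctcf, which made 2 of 9 higher (29.9%) and 1 lower (18.4%). Asked that the whole counting interval lie beyond 2-fold, Ctcf remained higher, where 18.0% of genes did, and Figla lower, where 6.35% did. In all 3 of the settings that lower every ratio together (TMM, the median gene, and totals without abundant genes) the 3 regulators past 2-fold were Figla, Sohlh2 and Zar1l.

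**Figure D4:**
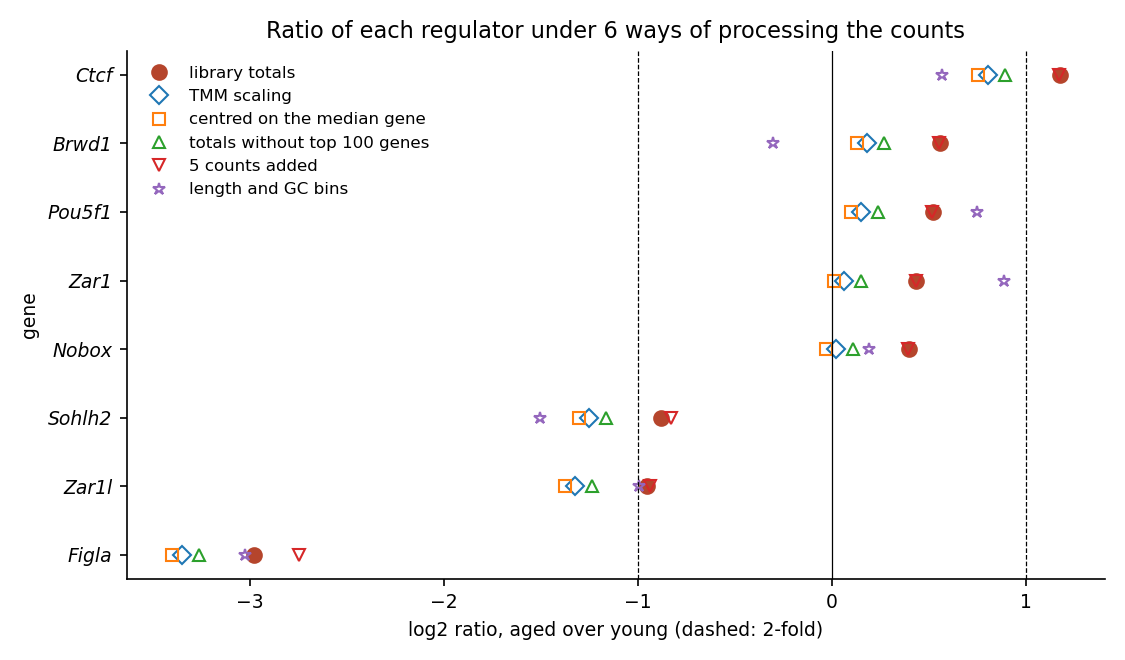
Log2 ratio of each regulator, aged over young, under 6 ways of processing the counts, with dashed lines at 2-fold. Figla stays between −3.40 and −2.75, Sohlh2 and Zar1l stay below 0 and Ctcf, Pou5f1 and Zar1 above 0 in all 6, while Nobox and Brwd1 take either sign.

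The last 100 bases of the longest coding transcript were searched for the polyadenylation signal (AATAAA or ATTAAA) and for the cytoplasmic polyadenylation element (TTTTAT or TTTTAAT), at which CPEB proteins control the tail length of stored messages. These ends are of interest because the cDNA was primed on the poly(A) tail. Whether tail length affected the counts was not tested. All 9 regulators held a signal, as did 83.2% of the 9231 coding genes at or above the floor. Sohlh2 alone of the 9 held the element, which 20.5% of those genes hold. It began 76 bases before the end of the transcript, ahead of the signal at 27 bases, and occurred once more 11 bases before the end. The sites are shown for Sohlh2 and, as its counterpart without the element, for Figla, with the matched letters in capitals.
Sohlh2 element: cttacacaaacaTTTTATtgttaaagtgtc
Sohlh2 signal: attgttttgtttAATAAAatgttttctctt
Figla signal: atgtaaaatataATTAAAatgagatgatat

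Across all genes, the median log2 ratio was 0.37 for the 1895 with the element, against 0.45 for the 7336 without it. This difference was small beside the quartiles of either group. Their median GC contents were 48.1% and 50.2%. With the medians of length and GC bins taken off, the median log2 ratios were −0.15 with the element and 0.02 without it.

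Genes described as acting downstream of Figla, Nobox, Sohlh1 or Lhx8 were mostly lower in the aged library. Of 16 such genes 15 were measured (Oog1 is not analysed here), and 4 were at least 2-fold lower and 2 at least 2-fold higher, where 10.6% and 27.9% of all genes were. Relative to the median gene 6 were lower and 1 higher, where 17.3% and 16.0% of all genes were. Their median log2 ratio was −0.55, beside 0.43 for all genes. The list shares 8 genes with the 10 general oocyte markers, whose median was −0.76 (−1.18 relative to the median gene) with 7 of 10 below 0, so the lower values were not shown to be particular to the targets. All 10 of the targets with promoters in the RefSeq table, 14 promoters in all, held at least 1 E-box, as did 7 of the 10 regulators, where 72.3% of single promoters do. The egg-coat genes of Figla did not differ alike. Zp1, which crosslinks the zona filaments, had 3617 counts in aged oocytes against 8394 in young oocytes and was 2.22-fold lower (2.13 to 2.30). Zp2, which sperm bind, was 1.46-fold lower (2449 and 3744 counts), and Zp3, the other filament protein, was 1.09-fold higher (18967 and 18237 counts). Their log2 ratios of −1.15, −0.55 and 0.12 compare with −2.98 for Figla.

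Among genes of the same list that code for secreted factors or their receptors, Gdf9 had 795892 counts in aged oocytes against 1891007 in young oocytes and was 2.27-fold lower. Bmp15, its partner, was 1.48-fold lower (10903 and 16895 counts) and Kit, the receptor of the oocyte for granulosa stem cell factor, 1.37-fold lower (687 and 987 counts). Mos, the kinase that holds the MII arrest, was 1.93-fold lower and the oocyte linker histone gene H1foo 1.36-fold lower. Oosp1, an oocyte-secreted protein whose promoter holds 5 E-boxes, was 2.13-fold lower, and Rfpl4, a RING-finger protein of oocytes, 3.89-fold lower (11332 and 46144 counts). Padi6, of the cytoplasmic lattices, was 1.58-fold lower and the DNA methyltransferase gene Dnmt1 1.35-fold lower. In the other direction stood Rspo2, a Wnt signal enhancer, at 2.85-fold higher (7040 and 2589 counts), Nlrp5, of the subcortical maternal complex, at 2.54-fold higher (5861 and 2412 counts) and Fgf8, a growth factor, at 1.22-fold higher with an interval that includes equality (69 and 59 counts). Gdf9 had the highest mean count of all genes.

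**Figure D5:**
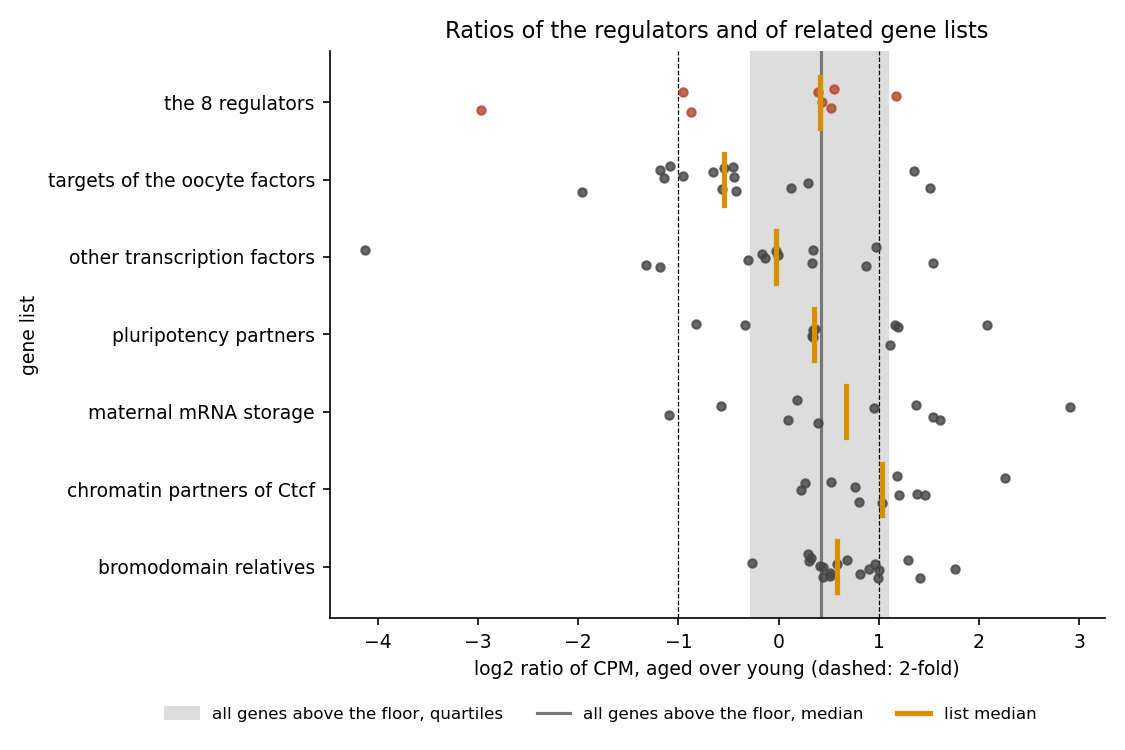
Log2 ratio of CPM, aged over young, of each gene at or above the floor (points) in the regulators and 6 related lists, with the list median (orange bar); the grey band and line are the quartiles and median of all genes and dashed lines mark 2-fold. The median is −0.55 for the targets of the oocyte factors and 1.03 for the chromatin partners of Ctcf, beside 0.43 for all genes.

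Other transcription factors of the oocyte and early embryo had a median log2 ratio of −0.03, with 3 of 13 lower and 1 higher by 2-fold or more, beside 10.6% and 27.9% of all genes. Once the median gene was set to 0 there were again 3 lower and 1 higher, beside 17.3% and 16.0%. Nfya, the DNA-binding subunit of NF-Y, was 17.5-fold lower (14.2 to 21.9) with 91 counts in aged oocytes against 1671 in young oocytes, a larger difference than that of Figla. The homeobox gene Obox5, of a family with close copies, was 2.5-fold lower (13834 and 36216 counts). Tbpl2, the TATA-binding protein of growing oocytes, was 2.28-fold lower (1.55 to 3.40) with 39 and 93 counts, and the nuclear receptor gene Nr5a2 was 2.92-fold higher (2.00 to 4.35) with 106 and 38 counts. Obox2 (0 and 3 counts), Obox3 (2 and 3) and the zinc-finger gene Yy1 (2 and 16) lay below the floor.

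Pluripotency partners of Pou5f1 had a median log2 ratio of 0.36, a little under the 0.43 of all genes. Of the 10 measured 4 were higher by 2-fold or more and none was lower by as much, beside 27.9% and 10.6% of all genes, and once the median gene was set to 0 there were 1 and 1, beside 16.0% and 17.3%. Sox2, which binds DNA beside Oct4, had 125 counts in aged oocytes against 31 in young oocytes and was 4.22-fold higher (2.83 to 6.48). Lin28a, an RNA-binding protein, was 2.29-fold higher (2657 and 1214 counts), the nuclear receptor gene Esrrb 2.24-fold higher (1076 and 502 counts) and Dppa3, a maternal protector of DNA methylation, 2.16-fold higher (37625 and 18205 counts). Nanog was at the limit of detection with 3 counts in aged oocytes against 0 in young oocytes.

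Genes of maternal message storage, the process in which Zar1 acts, had a median log2 ratio of 0.67, and 4 of 10 were higher by 2-fold or more and 1 lower, beside 27.9% and 10.6% of all genes. Once the median gene was set to 0 there were 3 and 1, beside 16.0% and 17.3%. The 4 were Lsm14b, a component of storage particles, at 7.49-fold (162169 and 22676 counts), the oocyte cap-binding gene Eif4e1b at 3.06-fold (7085 and 2426), Patl2, a translational repressor, at 2.92-fold (482 and 173) and Cpeb1, which binds the polyadenylation element, at 2.58-fold (3373 and 1368). Ybx2, which coats stored messages, was the 1 gene at least 2-fold lower, at 2.13-fold (772 and 1725). Zar1, at 1.35-fold higher, and Zar1l, at 1.93-fold lower, lay between these values. With the median of length and GC bins taken off, the median of the list was −0.02.

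Chromatin partners of Ctcf were higher in the aged library in all 11 genes at or above the floor, beside 66.4% of all genes, and 6 of them were at least 2-fold higher, beside 27.9%. Their median log2 ratio was 1.03. Set against the median gene it was 0.60, with 9 of the 11 above 0 and 2 at least 2-fold higher, beside 16.0% of all genes. Nipbl, the loader of the cohesin ring, was 4.78-fold higher (635 and 139 counts), the cohesin subunit genes Rad21, Stag2 and Stag1 were 2.75-fold, 2.61-fold and 2.30-fold higher, and Ctcf itself was 2.26-fold higher. The list's median GC content was 42.4% and that of all genes 49.7%, and with the bin medians taken off its median was 0.28. Ctcfl, the germ-cell relative of Ctcf, had 1 count in aged oocytes against 3 in young oocytes. Also below the floor were the cohesin release gene Pds5a, with 5 counts in each library, and the zinc-finger gene Maz, with 1 count in aged oocytes against 15 in young oocytes. Yy1, which belongs to this list too, had 2 counts against 16.

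Of the bromodomain relatives of Brwd1 18 of 19 had a log2 ratio above 0, beside 66.4% of all genes, and the median was 0.58. At least 2-fold higher were 4 of 19, a share below the 27.9% of all genes, and none was lower, beside 10.6%. Once the median gene was set to 0 there were 1 and 0, beside 16.0% and 17.3%. Brwd3 was 2.67-fold higher (1059 and 416 counts), above the 1.47-fold of Brwd1. The chromatin remodelling subunit genes Baz2a, Bptf and Baz1a were 3.40-fold, 2.45-fold and 2.01-fold higher. Atad2b, below the floor, had 1 count in aged oocytes against 2 in young oocytes.

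The labelled cell type was checked against its markers. All 10 oocyte markers were detected in both libraries, from 2449 counts (Zp2) to 795892 (Gdf9) in the aged library and from 2412 (Nlrp5) to 1891007 (Gdf9) in the young one, and 7 of the 10 were lower in the aged library. The largest ratio in size among them was that of Ooep, 2.75-fold lower in the aged library (4576 and 13155 counts). Markers of granulosa and cumulus cells, which surround the oocyte, had counts for 11 of 15 genes, summed to 59.4 CPM in the aged library and 30.3 CPM in the young one. Most of this was Cyp19a1 (1056 and 436 counts), while Vim, Gja1 and Inha had 0 counts in the aged library against 51, 11 and 14 in the young one. Amh, Foxl2, Inhba and Star matched no row with counts, which does not show that they were absent. Fshr had 16 counts in aged oocytes against 0 in young oocytes, Cyp11a1 1 against 27, Has2 2 against 0, Ptx3 1 against 1 and Tnfaip6 1 against 2. Kitl, above the floor, had 22 against 30. Of the blood and leukocyte markers 1 of 10 had a count, a single count of Ptprc in the young library. None of the others matched a row with counts, which does not by itself show that they were absent. The 6 markers of oviduct epithelium together had 23 counts in aged oocytes against 40 in young oocytes. Most of the aged counts were Epcam (14 against 13) and Krt8 (8 against 10), which were found in both libraries. Ovgp1 (0 against 4), Foxj1 (0 against 2), Krt18 (0 against 11) and Pax8 (1 against 0) were each absent from 1 library. The part of such cells in the values above was not tested.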

How the data were processed

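Counts per gene and library were used as deposited by the authors. They are whole numbers with differing column totals and were taken to be without normalization. Per the labels' protocols, mRNA of 18 oocytes was reverse transcribed from an oligo(dT) primer of 24 bases, tailed, amplified by 18 and then 14 PCR cycles and sequenced on a SOLiD instrument. The genome build was mm9, per the submitters' processing notes. The aligner, the counting program, the annotation and the use of strand are steps not given in the sources used here. The authors' deposited log2 fold changes (young over aged), score (z value), p-value and q-value columns were not used, except to count the regulators and the genes in all that were marked.

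The 10 regulators and all gene lists were chosen with earlier results of these data known. Symbols were matched by Ensembl ID to GENCODE mouse release M21 (93.7% of counted rows). That release is on another build than mm9, so chromosomes are those of the deposited table, and GENCODE served for names, overlaps, transcript length and GC content (longest coding transcript, 97.0% of genes at or above the floor). Promoters came from RefSeq, build GRCm38.p6, for all 10 regulators and 10 of the 16 targets.

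Ratios were scaled to library totals, with 3 counts set for a 0. Intervals of ratios are exact (Clopper-Pearson), made from the binomial share of the aged library in both libraries' counts, those of a level exact Poisson, and those of a count ratio between regulators a normal approximation on the log scale. The ratio and its interval were checked on simulated counts with counting error only. That check does not cover amplification or differences between libraries. Genes named are all regulators, targets at or above the floor, up to 4 genes of each other list with the largest ratio in size, and genes with 5 or fewer counts. Beyond that rule, Ybx2, Epcam and Krt8 were named after their values were seen. The pairs of regulators, the 3′ ends and the genes they are set beside were also chosen after the values were seen. Values were computed in Python 3.11.15 (pandas 2.3.3, scipy 1.17.1, numpy 2.4.6) and drawn with matplotlib 3.10.9. The TMM (trimmed mean of M-values) factors of 1.14 for the aged and 0.878 for the young library were taken from edgeR 4.0.16, run in R 4.3.3.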

Additional observations from a re-analysis of the deposited data

How the results depend on the processing

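Each alternative was applied to the regulators and to all genes. Figla was at least 2-fold lower under all 8 settings, the original included (log2 ratio −3.40 to −2.75), while Zar1l crossed 2-fold in 3 and Sohlh2 in 4 of the 7 in which it was kept, and Ctcf in 4 of 8. These settings are not independent. A change of floor leaves the ratio of a kept gene as it was. TMM, the median gene and totals without abundant genes lower every ratio, so they could only move Figla further down. In those 3 and with length and GC bins, Ctcf was less than 2-fold higher. With TMM scaling 0 of 8 regulators were at least 2-fold higher and 3 lower (median 0.0397), beside 1757 and 1668 genes (17.2% and 16.3%). Centred on the median gene there were 0 and 3 (median −0.0117), beside 1633 and 1766. Without the 100 most abundant genes in the totals there were 0 and 3 (median 0.13), beside 1991 and 1489 (19.5% and 14.6%). Reduced by the medians of length and GC bins there were 0 and 2 (median −0.0583), beside 1345 and 1477. These settings shift all genes or large classes of them by construction. Genes at least 2-fold apart were 72.5% higher with library totals and 51.3%, 48.0% and 57.2% with the first 3 settings. With no floor Sohlh1 joined as a regulator at least 2-fold higher, which made 2 higher and 1 lower of 9, beside 5483 and 3370 genes. With a floor of 100 counts, which Sohlh2 missed, 1 was higher and 1 lower of 7, beside 1727 and 496. Requiring the interval to lie beyond 2-fold left Ctcf and Figla, beside 1841 and 648 genes. With 5 counts added the regulators' counts were unchanged at 1 and 1, beside 2707 and 997 genes. List medians ranged from −0.97 to −0.54 for the targets, −0.50 to −0.03 for other transcription factors, −0.07 to 0.46 for pluripotency partners, −0.02 to 0.67 for message storage, 0.28 to 1.10 for partners of Ctcf and 0.16 to 0.58 for bromodomain relatives. No paired analysis was possible because each age has 1 library, and leaving out a replicate was not possible for the same reason. Depth limits Sohlh1, and the precision of Figla and Sohlh2 in the aged library rests on 25 and 68 counts.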
